A study of Mus musculus with 12 samples.

Results

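Semaglutide and high-intensity interval training (HIIT) were set against each other as single interventions in muscle of diabetic mice, over 6 of the 12 libraries of the study: the 3 labelled with semaglutide injection and the 3 labelled with HIIT exercise. The animals of both groups were male C57BL/KsJ db/db mice, which carry a mutated leptin receptor and become obese and diabetic, and which were 8 weeks old when an intervention of 8 weeks began. Mice of the semaglutide group received the drug under the skin once a day, at 30 nmol/kg by the protocol, whereas the titles state 0.05 mg/kg, and the statements were not reconciled. Mice of the HIIT group ran on a treadmill on 5 days a week, in 10 bouts of 4 min at 85 to 90% of their top speed, each followed by 2 min at 50 to 60% (the titles give 60 min of exercise), and the time between the last run and the harvest is not given in the sources used here. Neither group had a non-diabetic counterpart here, and no vehicle injection is named for the HIIT mice, so the drug cannot be told apart from the injecting. The remaining libraries were 3 from db/db mice given both interventions (combination) and 3 from db/db mice under normal rearing (control), and they served for the shared estimate of the spread and as side values. Replicates are numbered but no label ties them to separate animals, so every p-value refers to the spread among these libraries, which may be technical.

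Semaglutide is a lipidated peptide that activates the receptor of the gut hormone GLP-1, which raises cAMP and acts on pancreatic islets and on brain circuits of appetite. Interval training loads the muscle fibre itself through contraction, calcium, energy depletion and mechanical strain. Muscle mass is set by the balance of protein synthesis, driven by insulin and IGF through Akt and mTOR, and of breakdown, in which FoxO factors and glucocorticoids switch on the ubiquitin ligases atrogin-1 (Fbxo32) and MuRF1 (Trim63). The extracellular matrix around the fibres, mainly collagens I, III and VI, is made by resident fibroblasts and is remodelled under load.

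The deposited values were FPKM (read pairs per kilobase of a transcript, corrected for sequencing depth), and the depth estimated from the smallest steps of the values was about 17160000 to 21290000 fragments in a library. Replicates correlated across genes at r of 0.988 to 0.989 within the semaglutide group and at 0.970 to 0.979 within the HIIT group. The protocol names soleus as the harvested muscle, while the sample labels say only muscle. Myh4, the fastest myosin heavy chain, made up 94.7, 90.6 and 93.3% of the summed FPKM of 4 adult heavy chain genes in the semaglutide libraries and 93.2, 93.4 and 86.6% in the HIIT libraries. The slow myosin Myh7, which is abundant in mouse soleus, made up 0.133 to 0.993% in the semaglutide libraries and 0.150 to 0.537% in the HIIT libraries, which goes against the soleus of the protocol, so the tissue is called muscle here. Libraries also differed in transcripts of other organs: albumin (Alb) stood at 0.981, 2.66 and 3.57 FPKM in the semaglutide libraries and at 178, 27.6 and 3.80 FPKM in the HIIT libraries, and HIIT replicate 1 and control replicates 1 and 2 were the richest in liver transcripts. Counts that the text leads with are therefore also given without those 3 libraries, a choice made after the data were seen.

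Of 10666 genes tested with limma on log2(FPKM + 1), 490 differed between semaglutide and HIIT muscle at an adjusted p of 0.05, which is 4.59%. In semaglutide muscle 251 genes (2.35%) were higher and 239 (2.24%) were lower than in HIIT muscle, and the median difference over all genes was -0.03 on the log2 scale. An unadjusted p under 0.05 was reached by 2539 genes (23.8%), the share to set beside the unadjusted counts of the lists below. The 3 semaglutide values lay wholly above the 3 HIIT values in 13.4% of the genes and wholly below them in 16.8%. Of the called genes 51.2% were higher in semaglutide muscle. After rescaling the FPKM without mitochondrially encoded genes 62.0% of 656 calls were higher, and after division by TMM factors 43.0% of 703 were. Without HIIT replicate 1 and control replicates 1 and 2 the count fell to 88 genes, 43 higher and 45 lower in semaglutide muscle. Every semaglutide library mattered to the count, which was 66 without semaglutide replicate 1, 148 without replicate 2 and 183 without replicate 3, and it was 234 without HIIT replicate 1 and 173 without HIIT replicate 3.

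**Figure D1:**
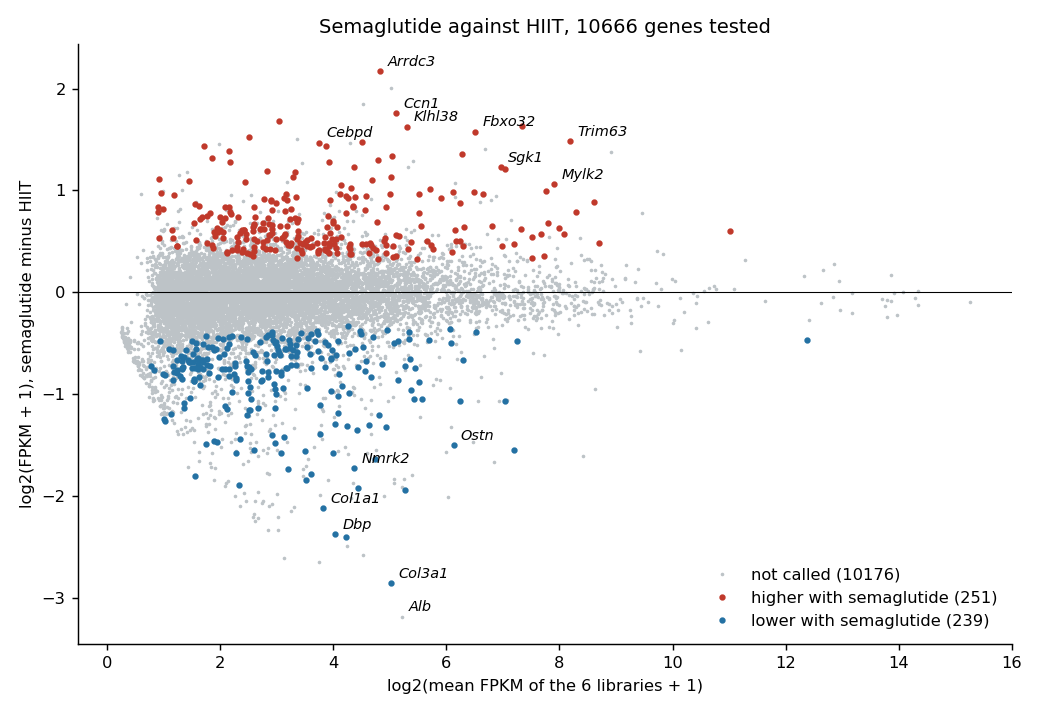
Difference between semaglutide and HIIT muscle (y axis, log2(FPKM + 1), semaglutide minus HIIT) against the mean level of the 6 libraries (x axis, log2) for 10666 genes. Red points are the 251 genes called higher with semaglutide, blue points the 239 called lower and grey points those not called. Of the labelled genes Arrdc3 lies highest, followed by Ccn1, Klhl38, Fbxo32 and Trim63. Col3a1 and Dbp are among the lowest called genes and Alb, lower still, was not called.

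The genes with the smallest p-values in each direction were Tmem229b and Pde4b, higher in semaglutide muscle, and Aimp2 and Col6a3, lower. Tmem229b, which encodes a transmembrane protein, stood at 4.11, 4.18 and 4.20 FPKM in semaglutide muscle, against 1.28, 0.998 and 0.951 FPKM in HIIT muscle. The difference was 1.32 ± 0.12 on the log2 scale (limma SE, n = 3 each, adjusted p = 0.00146), and the groups lay far apart. Aimp2, a scaffold protein of the multi-enzyme complex of aminoacyl-tRNA synthetases, stood at 31.4, 26.6 and 32.0 FPKM in semaglutide muscle, against 57.9, 71.5 and 59.3 FPKM in HIIT muscle (-1.04 ± 0.11, limma adjusted p = 0.00174). The calls of these 4 genes held without any 1 of the 12 libraries, with adjusted p of at most 0.0148.

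Promoter sequences of these 4 genes and of Trim63 are shown because the genes differ most firmly between the interventions or, for Trim63, because FoxO and the glucocorticoid receptor are known to act on its promoter. Trim63 and Dbp were added after their values were seen, and the Dbp window was searched but is not printed. RefSeq windows of 250 bases before and 50 bases from the annotated start (GRCm38.p6, a different build from the GRCm39 of the files) were found for 8317 of the 10666 genes. Both strands were searched for the FoxO site TGTTTAC, the glucocorticoid receptor hexamer AGAACA, the cAMP response element core TGACG, the AP-1 site TGANTCA and the E-box CACGTG, and matches are in capitals.
Tmem229b, chr12:79007228-79007527, minus strand: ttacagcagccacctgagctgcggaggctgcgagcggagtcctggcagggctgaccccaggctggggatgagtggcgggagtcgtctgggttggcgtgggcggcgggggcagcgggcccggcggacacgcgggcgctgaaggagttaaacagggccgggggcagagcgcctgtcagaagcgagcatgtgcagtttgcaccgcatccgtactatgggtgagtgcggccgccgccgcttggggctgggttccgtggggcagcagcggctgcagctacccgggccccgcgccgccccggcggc
Pde4b, chr4:102421305-102421604, plus strand, the first of 4 listed starts: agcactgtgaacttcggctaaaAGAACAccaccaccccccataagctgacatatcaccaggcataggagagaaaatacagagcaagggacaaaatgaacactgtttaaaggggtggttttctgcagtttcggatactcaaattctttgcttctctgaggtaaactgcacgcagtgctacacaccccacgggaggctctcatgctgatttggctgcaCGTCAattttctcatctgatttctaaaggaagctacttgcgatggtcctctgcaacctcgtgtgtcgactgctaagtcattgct
Aimp2, chr5:143909790-143910089, minus strand: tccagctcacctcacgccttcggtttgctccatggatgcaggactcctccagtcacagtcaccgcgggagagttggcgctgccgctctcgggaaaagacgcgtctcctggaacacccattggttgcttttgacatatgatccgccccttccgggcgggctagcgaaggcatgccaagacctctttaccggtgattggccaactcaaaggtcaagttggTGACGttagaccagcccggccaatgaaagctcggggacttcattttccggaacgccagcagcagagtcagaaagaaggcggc
Col6a3, chr1:90843922-90844221, minus strand: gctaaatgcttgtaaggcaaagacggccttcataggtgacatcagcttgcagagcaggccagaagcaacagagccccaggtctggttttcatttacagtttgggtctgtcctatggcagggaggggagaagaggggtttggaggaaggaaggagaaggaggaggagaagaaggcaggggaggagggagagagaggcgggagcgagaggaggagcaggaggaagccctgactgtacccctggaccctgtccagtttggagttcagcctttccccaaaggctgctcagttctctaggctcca
Trim63, chr4:134314870-134315169, plus strand: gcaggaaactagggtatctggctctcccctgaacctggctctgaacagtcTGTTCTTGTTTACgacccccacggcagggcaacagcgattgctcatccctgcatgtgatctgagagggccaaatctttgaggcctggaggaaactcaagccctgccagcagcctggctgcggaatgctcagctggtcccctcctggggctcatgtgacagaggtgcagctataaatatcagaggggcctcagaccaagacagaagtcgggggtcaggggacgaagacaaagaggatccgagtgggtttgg
In Trim63 the glucocorticoid receptor hexamer, read on the minus strand at -200 to -195, ran directly into the FoxO site at -194 to -188 without overlapping it. Pde4b held a glucocorticoid receptor hexamer at -228 to -223 and a cAMP core at -34 to -30, and Aimp2 held a cAMP core at -32 to -28. The Col6a3 window and that of Tmem229b, which is 1 of 2 listed starts, held none of the 5 motifs. Neither did the Dbp window, so that it held no E-box. The FoxO site occurred in 2.43% of all 8317 windows, in 4.04% of 198 windows of genes higher in semaglutide muscle and in 2.22% of 180 windows of genes lower in it. For the glucocorticoid receptor hexamer the shares were 12.3% of all, 13.1% of the higher and 10.0% of the lower genes. The cAMP core was in 32.7% of all, 37.9% of the higher and 24.4% of the lower genes, the E-box in 10.7%, 15.2% and 5.56%, and the AP-1 site in 4.68%, 4.55% and 5.00%. These shares are descriptions, and a match in a window is not a bound site.

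Genes of muscle protein breakdown were higher in semaglutide muscle than in HIIT muscle. Of 23 tested genes of a list of atrophy ligases and FoxO targets, 8 were called higher and 0 were called lower by limma. Of all genes 2.35% were called higher and 2.24% lower. At an unadjusted p under 0.05 the list had 15 and 2, against 23.8% of all genes in either direction. The median difference of the list was 0.43 against -0.03 over all genes. Fbxo32 (atrogin-1, an F-box ubiquitin ligase of muscle wasting) stood at 182, 123 and 105 FPKM in the semaglutide libraries, against 39.4, 38.7 and 55.3 FPKM in the HIIT libraries. The lowest semaglutide library was well above the highest HIIT library, and the difference was 1.58 ± 0.20 (limma adjusted p = 0.00468). Trim63 (MuRF1, a RING ubiquitin ligase of sarcomere proteins) stood at 562, 399 and 337 FPKM with semaglutide, against 147, 157 and 147 FPKM with HIIT, a difference of 1.49 ± 0.22 (limma adjusted p = 0.00881). Klhl38, a kelch-family protein, stood at 70.9, 49.1 and 53.9 FPKM with semaglutide, against 18.5, 11.8 and 25.9 FPKM with HIIT (1.63 ± 0.22, limma adjusted p = 0.00646). All 3 genes kept their call without any 1 library. Fbxo32 reached an adjusted p of 0.0535 with a replicate block, and Klhl38 reached 0.0521 without HIIT replicate 1 and control replicates 1 and 2.

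The other called members of the list had smaller differences, between 0.43 and 0.99 on the log2 scale. They were Foxo3, a FoxO transcription factor (mean FPKM 7.28 with semaglutide and 4.38 with HIIT), the ubiquitin ligase subunits Fbxo21 and Fbxo31, the MuRF1 relative Trim54 and the cell cycle inhibitor Cdkn1a. Foxo1, another FoxO factor, averaged 11.2 FPKM with semaglutide and 5.20 FPKM with HIIT without passing the threshold (0.95 ± 0.31, limma adjusted p = 0.1003). The calls of these 5 smaller members ended without semaglutide replicate 1, and without one or more of semaglutide replicates 2 and 3, HIIT replicates 1 and 3, control replicates 1 and 3 and combination replicates 1 to 3, with adjusted p of up to 0.161. The number of called members was 3 without semaglutide replicate 1, 4 without replicate 2, 3 without HIIT replicate 3 and 4 without the 3 libraries richest in liver transcripts, and their median stayed between 0.36 and 0.53 in these and the other settings tried.

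Side by side with the control muscle, which both comparisons share, Fbxo32 was 1.38 higher with semaglutide (limma adjusted p = 0.0113) and at -0.20 with HIIT (limma adjusted p = 0.818). Trim63 was at 1.04 with semaglutide (limma adjusted p = 0.0319) and at -0.45 with HIIT (limma adjusted p = 0.598). The Fbxo32 call against control ended without control replicate 1 (limma adjusted p = 0.0564), that of Trim63 without any 1 semaglutide library, control replicate 1 or 2 or combination replicate 2 or 3 (limma adjusted p of up to 0.113), and both ended without the 3 liver-rich libraries (limma adjusted p of 0.0604 and 0.264). The control libraries themselves held 46.2, 59.9 and 46.1 FPKM of Fbxo32. In the combination libraries, which share no library with the semaglutide, HIIT or control values above, Fbxo32 stood at 113, 90.8 and 109 FPKM, above all 3 control libraries.

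Genes of the proteasome and of autophagy had smaller differences. Of 32 proteasome subunits 29 were above 0. In 16 the semaglutide values lay wholly above the HIIT values, against 13.4% of all genes tested. Only Psmd4, Psmc2 and Psmd8 were called, with differences of 0.46, 0.39 and 0.48, where 2.35% of all genes were called higher. The list's median was 0.19, and 0 subunits were called by limma without any 1 of the semaglutide libraries or without HIIT replicate 1 or 3. With all libraries 11 were at an unadjusted p under 0.05, against 23.8% of all genes. Ulk1, the kinase that starts autophagy, was the firmest of 28 autophagy genes, at 21.7, 17.9 and 17.8 FPKM with semaglutide against 10.9, 9.41 and 8.89 FPKM with HIIT. Its difference was 0.91 ± 0.10 (limma adjusted p = 0.00174), and it held without any 1 library. The cargo receptor Sqstm1 and the lipid kinase Pik3c3 were called higher too, at 0.57 and 0.42, and their calls ended without semaglutide replicate 1 or 3 or HIIT replicate 3 among other libraries (limma adjusted p of up to 0.147).

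Glucocorticoid-responsive genes were also higher in semaglutide muscle, with 8 of 23 called higher and 0 called lower by limma and a median of 0.62. Of all genes 2.35% were called higher and 2.24% lower. At an unadjusted p under 0.05 the list had 14 and 0, against 23.8% of all genes in either direction. Sgk1, a kinase induced by glucocorticoids, stood at 173, 179 and 171 FPKM with semaglutide, against 67.7, 80.6 and 73.3 FPKM with HIIT. The groups did not overlap and each was narrow, and the difference was 1.23 ± 0.14 (limma adjusted p = 0.00325). Zbtb16, a zinc-finger repressor, stood at 26.7, 21.6 and 13.6 FPKM with semaglutide, against 7.33, 5.29 and 7.79 FPKM with HIIT (1.44 ± 0.26, limma adjusted p = 0.0171). Cebpd, a C/EBP transcription factor, stood at 18.1, 18.2 and 19.3 FPKM with semaglutide, against 9.51, 4.32 and 5.32 FPKM with HIIT (1.47 ± 0.31, limma adjusted p = 0.0272). Fkbp5, an FK506-binding co-chaperone of the glucocorticoid receptor, was at 0.88 ± 0.20 (limma adjusted p = 0.0346), and Tsc22d3 (GILZ) at 0.62 ± 0.12 (limma adjusted p = 0.0219). The metallothionein Mt2 and the stress protein Sesn1 were called as well, and Cdkn1a belongs to this list and to the atrophy list.

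Ddit4 (REDD1, an inhibitor of mTOR that glucocorticoids and energy stress induce) had the largest difference of the list but missed the threshold. It averaged 49.9 FPKM with semaglutide and 13.3 FPKM with HIIT, against 55.8 FPKM in control muscle, and the difference between the interventions was 2.01 ± 0.50 (limma adjusted p = 0.0516). Of the glucocorticoid list, Sgk1 kept its call without any 1 library, while the other 7 lost theirs without semaglutide replicate 1 and without other libraries of the semaglutide, HIIT, control or combination groups (limma adjusted p of up to 0.161). Without semaglutide replicate 1 or 2 only 1 member was called, without HIIT replicate 3 there were 2, and without the 3 liver-rich libraries 3. For Fkbp5 and Cdkn1a the means of both groups lay above control muscle. Fkbp5 was at 1.504 with semaglutide (limma adjusted p = 0.00823) and at 0.62 with HIIT (limma adjusted p = 0.437), and Cdkn1a was at 1.69 (limma adjusted p = 0.0121) and 0.70 (limma adjusted p = 0.437) against the shared controls. The Cdkn1a call against control ended without semaglutide replicate 1 or control replicate 1 (limma adjusted p of up to 0.0615).

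**Figure D2:**
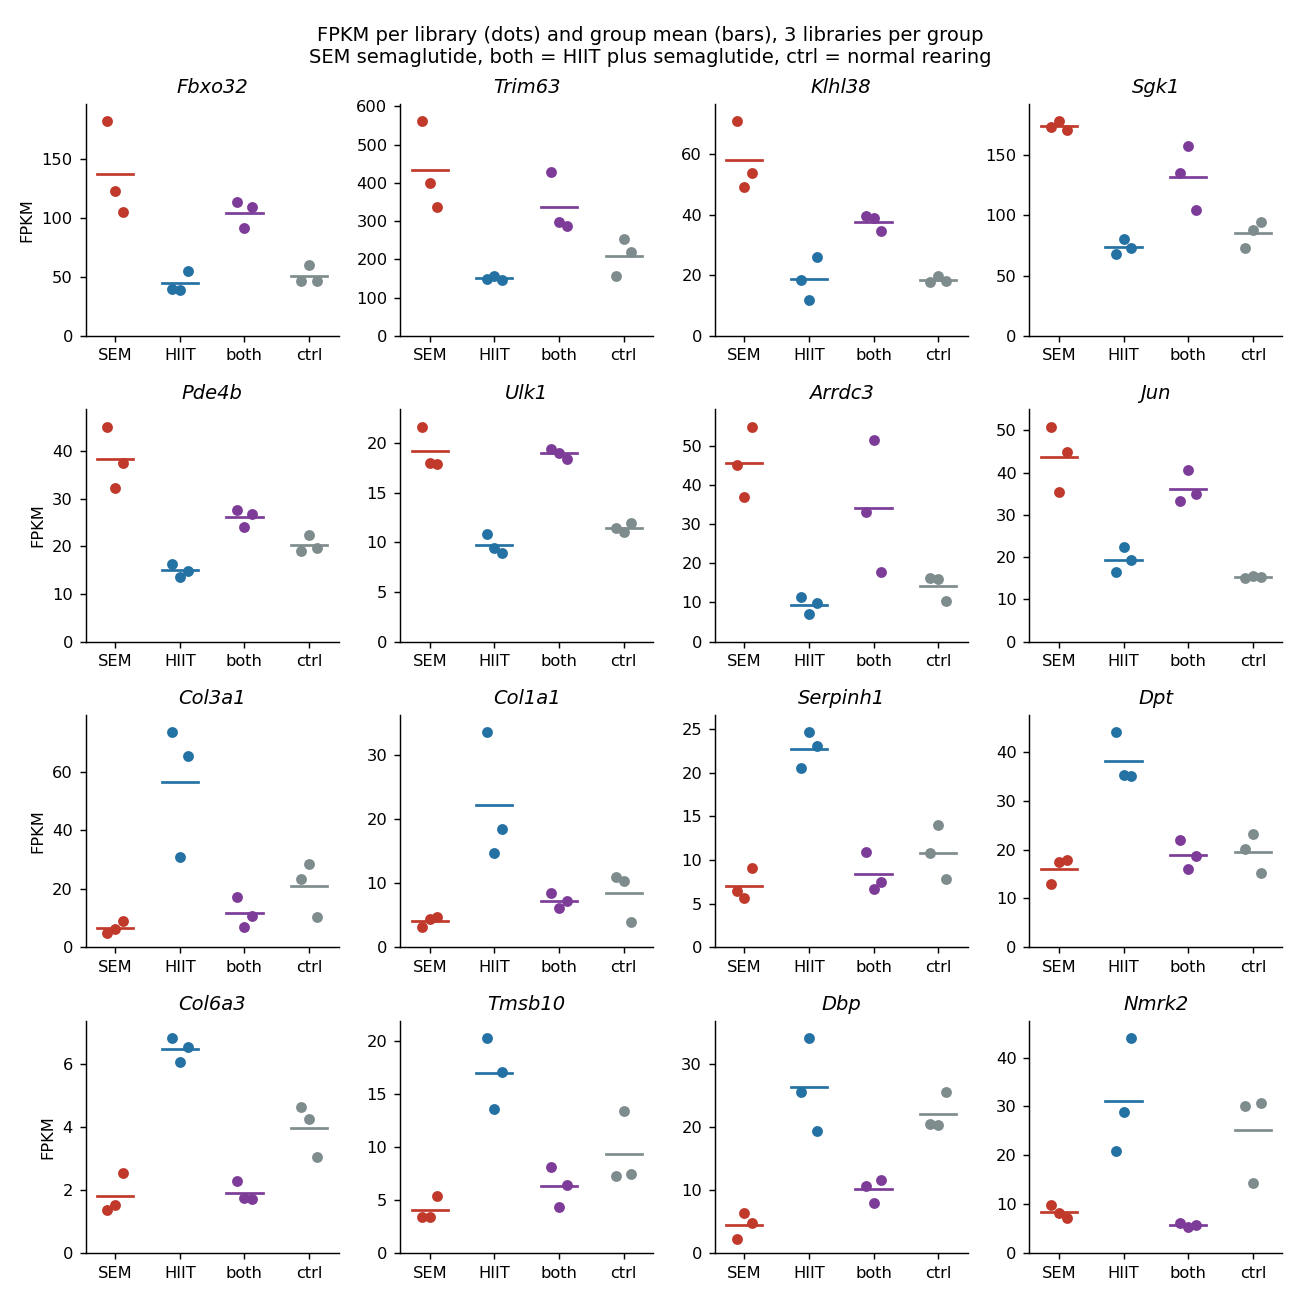
FPKM (y axis, linear from 0) of 16 genes in each of 12 libraries (dots) with the mean of 3 (bars), by group: semaglutide (SEM), HIIT, both interventions and control. Fbxo32, Trim63, Klhl38, Sgk1, Pde4b, Ulk1, Arrdc3 and Jun have their 3 semaglutide dots above the 3 HIIT dots, and Col3a1, Col1a1, Serpinh1, Dpt, Col6a3, Tmsb10, Dbp and Nmrk2 have them below.

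On the synthesis side, 27 genes of myostatin, IGF and growth control had 3 called higher and 3 lower by limma, with a median of 0.14. Of all genes 2.35% were called higher and 2.24% lower. At an unadjusted p under 0.05 the list had 8 and 3, against 23.8% of all genes in either direction. Eif4ebp1, the translation repressor that mTOR inactivates, stood at 42.9, 32.6 and 39.6 FPKM with semaglutide, against 21.6, 19.5 and 21.5 FPKM with HIIT (0.84 ± 0.11, limma adjusted p = 0.00529). The activin and myostatin type I receptor Acvr1b (0.95 ± 0.17, limma adjusted p = 0.0172) and the signal transducer Smad3 (0.58 ± 0.11, limma adjusted p = 0.0196) were also higher. Lower were Fstl1 (follistatin-like 1, a secreted glycoprotein, -1.56), the IGF-binding protein Igfbp5 (-1.32) and Gdf11 (a TGF-β family ligand close to myostatin, -0.80). Myostatin itself, Mstn, overlapped between the groups, at 45.7, 42.9 and 43.4 FPKM with semaglutide and 28.5, 48.4 and 34.9 FPKM with HIIT (0.27 ± 0.24, limma adjusted p = 0.524). Eif4ebp1 held without any 1 library, Fstl1 lost its call without semaglutide replicate 1 (adjusted p = 0.0505), and the other 4 lost theirs without semaglutide replicate 1 and other libraries (limma adjusted p of up to 0.0853).

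Among 31 tested genes of insulin signalling and glucose uptake 2 were called higher and 0 lower by limma, with a median of -0.01. Of all genes 2.35% were called higher and 2.24% lower. At an unadjusted p under 0.05 the list had 6 and 4, against 23.8% of all genes in either direction. Pik3r1, the regulatory subunit of PI3-kinase, stood at 44.6, 58.4 and 35.9 FPKM with semaglutide, against 14.2, 17.4 and 20.98 FPKM with HIIT (1.34 ± 0.25, limma adjusted p = 0.0195). Tbc1d1, a Rab GTPase-activating protein that restrains the glucose transporter GLUT4, stood at 33.2, 38.1 and 29.9 FPKM with semaglutide, against 10.998, 20.4 and 15.2 FPKM with HIIT (1.10 ± 0.20, limma adjusted p = 0.0174). Both calls ended without semaglutide replicate 1 or 2, that of Pik3r1 without HIIT replicate 1 and that of Tbc1d1 without HIIT replicate 3 (limma adjusted p of up to 0.083), and neither remained without the 3 liver-rich libraries. The GLUT4 gene Slc2a4 did not pass, at 187, 197 and 184 FPKM with semaglutide and 135, 183 and 139 FPKM with HIIT (0.32 ± 0.13, limma adjusted p = 0.154). Hexokinase Hk2 (-0.34 ± 0.13, limma adjusted p = 0.142) and Irs2 (0.49 ± 0.23, limma adjusted p = 0.215) did not pass either.

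Glp1r, the receptor gene of the drug, was listed at 0 FPKM in all 6 libraries of the comparison. Among 23 other tested genes of GLP-1 receptor and cAMP signalling, 1 was called higher and 1 lower, and the median was -0.06. Of all genes 2.35% were called higher and 2.24% lower. Pde4b, a phosphodiesterase that degrades cAMP, stood at 45.2, 32.3 and 37.6 FPKM with semaglutide, against 16.3, 13.6 and 14.9 FPKM with HIIT (1.30 ± 0.12, limma adjusted p = 0.00146). Its relative Pde4a went the other way, at 3.91, 6.59 and 5.39 FPKM with semaglutide and 10.2, 9.19 and 9.64 FPKM with HIIT (-0.78 ± 0.17, limma adjusted p = 0.0272). The Pde4b promoter printed above is the first of its 4 listed starts. The Pde4a call ended without semaglutide replicate 1 or 3 or HIIT replicate 1 or 3 (limma adjusted p of up to 0.106).

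Further genes higher with semaglutide were early-response and signalling genes. Arrdc3, an arrestin-family protein that promotes the turnover of β-adrenergic receptors, had the largest positive difference of all called genes. It stood at 45.2, 37.1 and 55.0 FPKM with semaglutide, against 11.3, 7.03 and 9.92 FPKM with HIIT (2.17 ± 0.33, limma adjusted p = 0.00952), and it kept its call without any 1 library (limma adjusted p of up to 0.0499) but reached 0.0521 without the 3 liver-rich ones. Jun, the AP-1 transcription factor, stood at 50.9, 35.3 and 44.8 FPKM with semaglutide, against 16.4, 22.5 and 19.2 FPKM with HIIT (1.13 ± 0.14, limma adjusted p = 0.0035). Ccn1, a matricellular protein and early target of growth factors and stretch, stood at 47.1, 61.9 and 48.6 FPKM with semaglutide, against 14.3, 11.3 and 19.6 FPKM with HIIT (1.76 ± 0.26, limma adjusted p = 0.00881). Of 25 tested immediate early genes, Jun, Ccn1 and Btg2 were called higher and 0 lower by limma, with a median of 0.39. Of all genes 2.35% were called higher and 2.24% lower. At an unadjusted p under 0.05 the list had 8 and 0, against 23.8% of all genes in either direction. The Btg2 call ended without semaglutide replicate 1 (limma adjusted p = 0.0563).

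Histone H1f2 stood at 203, 241 and 291 FPKM with semaglutide, against 94.2, 70.6 and 70.5 FPKM with HIIT (1.63 ± 0.16, limma adjusted p = 0.00163). Histone genes have near-identical relatives, so its level is uncertain. Il6ra, the interleukin-6 receptor, stood at 6.41, 5.71 and 4.12 FPKM with semaglutide, against 1.72, 1.29 and 1.86 FPKM with HIIT (1.28 ± 0.18, limma adjusted p = 0.00665). Prima1, which anchors acetylcholinesterase in membranes, was at 1.69 ± 0.26 (limma adjusted p = 0.00952), and the membrane protein Tmem140 at 1.48 ± 0.24 (limma adjusted p = 0.0128). Pnmt, the enzyme that makes adrenaline, stood at 7.17, 4.50 and 4.80 FPKM with semaglutide, against 1.39, 1.69 and 1.27 FPKM with HIIT (1.39 ± 0.24, limma adjusted p = 0.0144). The Pnmt call ended without semaglutide replicate 1 (limma adjusted p = 0.0654), while those of H1f2, Il6ra, Prima1 and Tmem140 held without any 1 library.

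Of 16 tested genes of the neuromuscular junction 3 were called higher and 0 lower by limma, and 14 lay above 0, with a median of 0.19. Of all genes 2.35% were called higher and 2.24% lower. At an unadjusted p under 0.05 the list had 4 and 0, near the 23.8% of all genes in either direction. Acetylcholinesterase, Ache, stood at 11.4, 10.3 and 13.0 FPKM with semaglutide, against 7.97, 7.47 and 5.17 FPKM with HIIT (0.69 ± 0.16, limma adjusted p = 0.0378). The acetylcholine receptor subunit Chrna1 was at 0.66 ± 0.16 (limma adjusted p = 0.0417) and the histone deacetylase Hdac4, which is induced by denervation, at 0.61 ± 0.15 (limma adjusted p = 0.0485). Chrna9, an acetylcholine receptor subunit that is not in this list, was at 1.44 ± 0.34 (limma adjusted p = 0.0409). These 4 calls were close to the threshold and ended without any 1 of the semaglutide libraries or HIIT replicate 3, and without several others (limma adjusted p of up to 0.156). For Ache and Chrna1 the control muscle stood with semaglutide, with differences of -0.04 and 0.12 for semaglutide and of -0.73 and -0.55 for HIIT, all 4 short of the threshold (limma adjusted p from 0.437 to 0.910). For Hdac4 it stood with HIIT, at 4.21, 3.46 and 3.52 FPKM, against 3.77, 3.28 and 4.25 FPKM with HIIT and 5.65, 7.58 and 5.64 FPKM with semaglutide. The Hdac4 call also ended with pseudocounts of 0.1 and 0.5 and with TMM factors.

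The myogenic factor Myf6 (MRF4) was higher with semaglutide, at 170, 90.0 and 136 FPKM, against 58.7, 53.4 and 86.7 FPKM with HIIT (0.97 ± 0.22, limma adjusted p = 0.0368). Myod1 stood at 6.51, 7.21 and 5.72 FPKM with semaglutide, against 2.90, 4.37 and 3.86 FPKM with HIIT (0.68 ± 0.16, limma adjusted p = 0.0376). The list of exercise-regulated factors holds 20 tested genes. In it 3 were called higher (Arrdc3, Myf6 and the salt-inducible kinase Sik1) and 3 lower, against 2.35% and 2.24% of all genes. The lower ones were Nmrk2, the muscle nicotinamide riboside kinase, Ostn, which encodes the myokine musclin, and the polyamine oxidase Smox. Nmrk2 stood at 9.90, 8.25 and 7.06 FPKM with semaglutide, against 20.8, 28.8 and 44.0 FPKM with HIIT (-1.72 ± 0.30, limma adjusted p = 0.0158). Ostn stood at 32.1, 29.0 and 41.4 FPKM with semaglutide, against 77.1, 159 and 75.6 FPKM with HIIT (-1.50 ± 0.27, limma adjusted p = 0.0163). Against the shared controls Nmrk2 was at -1.41 with semaglutide (limma adjusted p = 0.0319) and at 0.31 with HIIT (limma adjusted p = 0.800), and the first of these ended without any 1 semaglutide library, control replicate 1 or 3 or combination replicate 2 or 3 (limma adjusted p of up to 0.113). Except for Arrdc3, these calls ended without semaglutide replicate 1, and for Nmrk2, Ostn, Smox, Sik1, Myf6 and Myod1 without other libraries as well (limma adjusted p of 0.0517 for Nmrk2 and of up to 0.128 over the others).

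The clock output gene Dbp, a PAR-domain transcription factor, was among the genes furthest below HIIT. It stood at 2.24, 6.35 and 4.73 FPKM in semaglutide muscle, against 25.6, 34.1 and 19.3 FPKM in HIIT muscle (-2.37 ± 0.28, limma adjusted p = 0.0035). All semaglutide libraries lay far below the lowest HIIT library, and the call held without any 1 library. Nr1d1 (REV-ERBα, a repressor of the clock) stood at 21.1, 33.5 and 28.4 FPKM with semaglutide, against 53.3, 56.3 and 52.1 FPKM with HIIT (-0.96 ± 0.17, limma adjusted p = 0.0163, or 0.0654 without semaglutide replicate 1). The core clock gene Bmal1 averaged 5.61 FPKM with semaglutide and 5.23 FPKM with HIIT (limma adjusted p = 0.817), and the median over 21 clock genes was -0.05. The hour of tissue harvest is not given in the sources used here. For Dbp the control muscle stood with HIIT, at 20.5, 20.2 and 25.5 FPKM.

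Among the pathway lists the extracellular matrix had the most genes called lower in semaglutide muscle. Of 40 tested matrix genes 39 lay below 0, with a median of -0.73. In 26 the semaglutide values lay wholly below the HIIT values, against 16.8% of all genes tested. By limma 13 were called lower and 0 higher (27 and 0 at an unadjusted p under 0.05), against 2.24% of all genes called lower. Col3a1 (collagen III) stood at 4.97, 6.07 and 8.89 FPKM with semaglutide, against 73.6, 30.8 and 65.4 FPKM with HIIT (-2.85 ± 0.44, limma adjusted p = 0.0106). Col1a1 (collagen I) stood at 3.12, 4.43 and 4.75 FPKM with semaglutide, against 33.6, 14.6 and 18.5 FPKM with HIIT (-2.12 ± 0.36, limma adjusted p = 0.0144). Within the HIIT group replicate 2 was the lowest for both collagens, and still far above every semaglutide library. Col6a3 (collagen VI) was the firmest of the list, at 1.36, 1.52 and 2.54 FPKM with semaglutide against 6.81, 6.05 and 6.53 FPKM with HIIT (-1.43 ± 0.17, limma adjusted p = 0.00325).

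Matrix-building proteins moved with the collagens. Serpinh1 (HSP47, the collagen chaperone of the endoplasmic reticulum) stood at 6.45, 5.59 and 9.13 FPKM with semaglutide, against 20.5, 24.6 and 23.0 FPKM with HIIT (-1.58 ± 0.22, limma adjusted p = 0.00675). Dpt (dermatopontin, which helps assemble collagen fibrils) stood at 12.9, 17.4 and 17.9 FPKM with semaglutide, against 44.0, 35.4 and 34.97 FPKM with HIIT (-1.20 ± 0.17, limma adjusted p = 0.00675). The remaining called members were Col1a2, Col5a1, Col6a1, Col6a2, fibrillin Fbn1, lumican Lum, the lysyl oxidase relative Loxl1 and the protease inhibitor Timp1, with differences between -1.91 and -0.75. Col6a3, Serpinh1 and Dpt kept their calls without any 1 library, whereas the other 10 calls ended without semaglutide replicate 1, some of them also without others (limma adjusted p of 0.0547 for Col3a1, 0.0733 for Col1a1 and up to 0.177). The list had 3 called members without semaglutide replicate 1, 7 without semaglutide replicate 2, HIIT replicate 1 or HIIT replicate 3, and 7 without the 3 liver-rich libraries.

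For Col3a1 and Col1a1 the mean of control muscle lay between those of the interventions. Against the shared controls Col3a1 was at -1.43 with semaglutide (limma adjusted p = 0.110) and at 1.42 with HIIT (limma adjusted p = 0.437), and Serpinh1 at -0.55 (limma adjusted p = 0.205) and 1.03 (limma adjusted p = 0.437), so that neither comparison alone passed. The list's median was -0.41 for semaglutide and 0.37 for HIIT against control. The combination libraries held 17.1, 6.88 and 10.8 FPKM of Col3a1, against 23.5, 28.6 and 10.3 FPKM in the control libraries.

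Summed markers of fibroblasts and white adipocytes were lower in all 3 semaglutide libraries than in the HIIT libraries. Endothelial sums were lower too, but only with Fabp4, which adipocytes share, among them. Sums of macrophage, hepatocyte and pericyte markers overlapped. Most of the pericyte sum came from Des, which is also in the skeletal muscle list, so it says little about pericytes. The satellite cell sum was higher, at 26.2, 23.3 and 26.0 FPKM with semaglutide against 21.1, 18.5 and 16.7 FPKM with HIIT (exact permutation test, two-sided p = 0.1, adjusted 0.46). Sdc4 and Cdh15 gave most of it, and 0 of 3 tested members were called by limma. Pax7 overlapped, at 0.283, 0.420 and 0.444 FPKM with semaglutide and 0.374, 0.364 and 0.531 FPKM with HIIT. In bulk muscle fewer cells of a type and less RNA per cell cannot be told apart. Summed fibroblast markers came to 505, 499 and 510 FPKM with semaglutide, against 1332, 606 and 938 FPKM with HIIT (exact permutation test, two-sided p = 0.1, the smallest that 3 against 3 allows, and 0.46 after adjustment over 23 sums). Of 14 tested fibroblast markers 13 lay below 0 and 5 were called lower (Col1a1, Col3a1, Lum, Dpt and Cd34), while the fibroblast proteoglycan Dcn overlapped, at 156, 140 and 132 FPKM with semaglutide and 241, 114 and 214 FPKM with HIIT. The called fibroblast markers, apart from Cd34, also belong to the matrix list, and 2.24% of all genes were called lower. The number called was 1 without semaglutide replicate 1, where Cd34 reached an adjusted p of 0.0508 (limma), 9 without HIIT replicate 2 and 2 with the hepatocyte, white adipocyte or macrophage score as a covariate. Tcf21, another fibroblast marker, was listed at 0 in all 6 libraries.

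White adipocyte markers came to 1096, 1092 and 1313 FPKM with semaglutide, against 2344, 2100 and 1859 FPKM with HIIT (exact permutation test, two-sided p = 0.1, adjusted 0.46). All 12 tested markers lay below 0, with a median of -1.66, and 0 were called by limma (8 at an unadjusted p under 0.05). In 11 the semaglutide values lay wholly below the HIIT values, against 16.8% of all genes tested. Adiponectin, Adipoq, stood at 9.60, 8.54 and 30.5 FPKM with semaglutide and 77.6, 51.2 and 39.9 FPKM with HIIT (-1.91 ± 0.73, limma adjusted p = 0.153). Car3, which muscle fibres make too, gave most of the sum, and Adrb3 was listed at 0 in all 3 semaglutide libraries. The lipid droplet protein Cidea, called lower at -1.13 ± 0.29 (limma adjusted p = 0.0486), was the only called gene of 21 lipid droplet and 24 PPAR target genes, and its call ended without most single libraries, among them each semaglutide and each HIIT replicate (limma adjusted p of up to 0.155).

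Macrophage markers came to 26.7, 35.4 and 40.4 FPKM with semaglutide, against 199, 37.8 and 200 FPKM with HIIT, so that HIIT replicate 2 lay within the semaglutide range (exact permutation test, two-sided p = 0.2). All 12 tested macrophage markers lay below 0, with a median of -1.09, and 0 were called by limma. At an unadjusted p under 0.05 there were 7, against 23.8% of all genes. Without HIIT replicate 2 the same list had 6 called lower and a median of -1.74. Lyz2 stood at 9.83, 14.9 and 19.3 FPKM with semaglutide and 87.2, 14.9 and 101 FPKM with HIIT. In a list of 14 inflammation genes Il6ra was called higher and the monocyte attractant Ccl2 lower, against 2.35% and 2.24% of all genes. Ccl2 was at 0, 0 and 0.733 FPKM with semaglutide, against 4.15, 1.13 and 5.66 FPKM with HIIT (-1.80 ± 0.41, limma adjusted p = 0.038), a call that ended without any 1 semaglutide library, HIIT replicate 1 or 3, control replicate 1 or combination replicate 2 or 3 (limma adjusted p of up to 0.139). Interferon-stimulated genes all lay below 0, 17 of 17, with Ifitm3 the only call and a median of -0.37. Without HIIT replicate 1 it was 14 of 17 with a median of -0.22, and with the hepatocyte score as a covariate 10 of 17 with a median of -0.11. The Ifitm3 call (-0.77 ± 0.19, limma adjusted p = 0.0421) ended without the same 8 libraries (limma adjusted p of up to 0.141).

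Endothelial markers came to 330, 257 and 452 FPKM with semaglutide, against 950, 542 and 614 FPKM with HIIT. Of this Fabp4, which adipocytes share, made up 150, 94.3 and 288 FPKM with semaglutide and 699, 365 and 458 FPKM with HIIT. Without Fabp4 the sums overlapped between the groups. Of 15 tested endothelial markers 1 was called, Emcn, at -0.73, and its call ended without any 1 semaglutide or control library, HIIT replicate 1 or 3 or combination replicate 2 (limma adjusted p of up to 0.123). Pecam1, a defining endothelial marker, overlapped, at 21.2, 21.4 and 21.3 FPKM with semaglutide and 27.1, 17.997 and 16.1 FPKM with HIIT. Hepatocyte markers came to 29.0, 44.7 and 194 FPKM with semaglutide, against 697, 316 and 111 FPKM with HIIT (exact permutation test, two-sided p = 0.2), with 17 of 17 below 0 and 0 called by limma (8 at an unadjusted p under 0.05). The single gene Hp made up 163 FPKM of this sum in semaglutide replicate 3 and 78.7 FPKM in HIIT replicate 3. Summed skeletal muscle markers overlapped between the groups (exact permutation test, two-sided p = 0.6). With the macrophage score as a covariate 5 matrix genes were called, with the white adipocyte score 3 and with the hepatocyte score 4, while 6, 5 and 4 of the atrophy list were. The matrix median was -0.41, -0.48 and -0.46 in these fits, against -0.73 without a covariate, and 6, 6 and 7 of the 40 genes lay above 0. The atrophy median was 0.47, 0.51 and 0.42. The part of other cells in the matrix difference was not tested beyond these fits, each of which also gives up a degree of freedom.

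**Figure D3:**
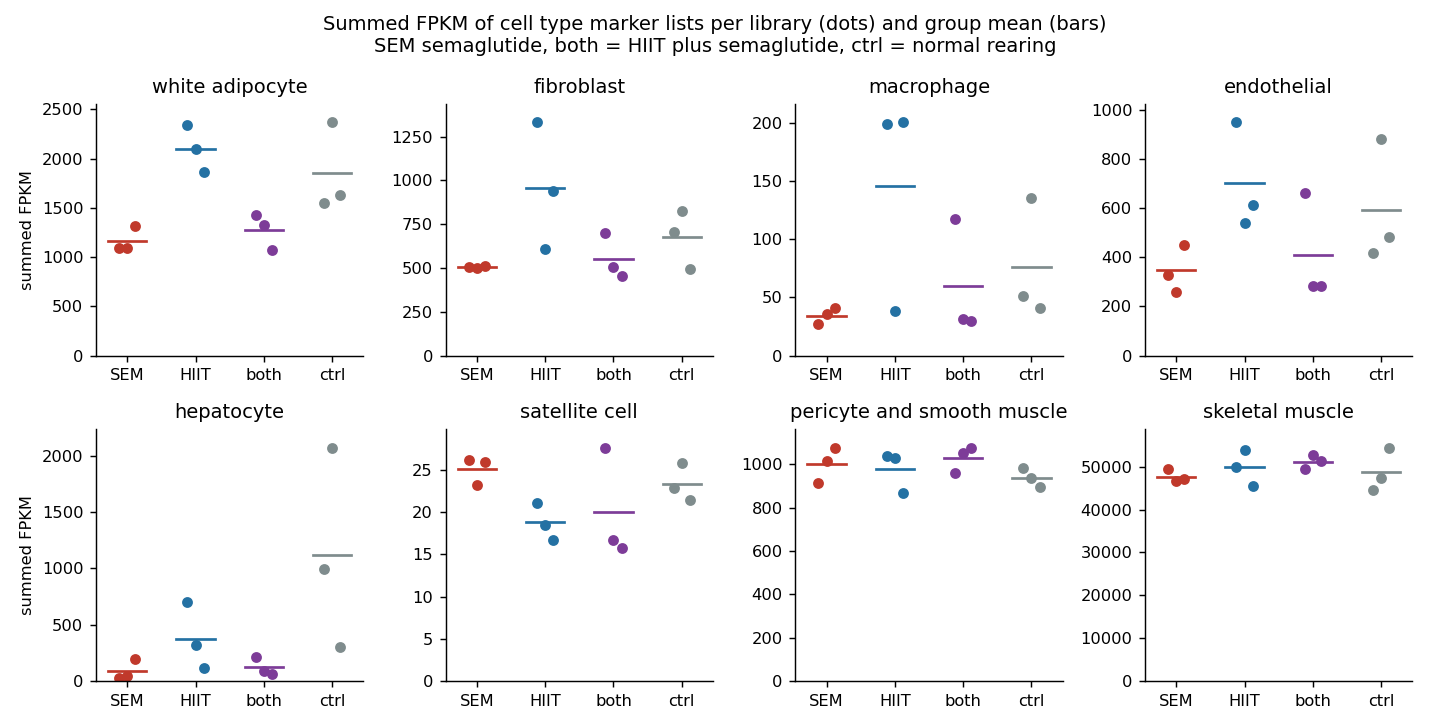
Summed FPKM (y axes, linear from 0) of 8 lists of cell type markers in each of 12 libraries (dots) with the mean of 3 (bars), by group: semaglutide (SEM), HIIT, both interventions and control. White adipocyte, fibroblast and endothelial sums of the 3 semaglutide libraries lie below those of the 3 HIIT libraries. The endothelial sums include Fabp4, which adipocytes share, and without it (not drawn) they overlap. Skeletal muscle and pericyte sums, both of which include Des, overlap.

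Tmsb10, a thymosin that binds actin monomers, stood at 3.41, 3.39 and 5.37 FPKM with semaglutide, against 20.3, 13.6 and 17.0 FPKM with HIIT (-1.83 ± 0.26, limma adjusted p = 0.00688), and held without any 1 library. The calcium-binding protein S100a4 stood at 3.27, 4.93 and 6.26 FPKM with semaglutide, against 40.7, 17.9 and 33.2 FPKM with HIIT (-2.40 ± 0.55, limma adjusted p = 0.040). Its relative S100a6 was at -1.94 ± 0.39 (limma adjusted p = 0.0253) and Hpgd, which degrades prostaglandins, at -1.89 ± 0.46 (limma adjusted p = 0.0477). These 3 calls ended without any 1 semaglutide library or HIIT replicate 1 or 3, and those of S100a4 and Hpgd without others too (limma adjusted p of up to 0.155).

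Lists of energy metabolism held few calls. For nuclear subunits of respiratory complex I 0 of 38 were called by limma (0 higher and 3 lower at an unadjusted p under 0.05), and for complexes II to V 0 of 42 (0 and 4). In sign, 35 of the 38 and 40 of the 42 lay below 0, with medians of -0.11 and -0.14. The mitochondrially encoded share of the FPKM overlapped, at 33.5, 37.5 and 34.4% with semaglutide and 32.4, 32.9 and 42.0% with HIIT (exact permutation test, two-sided p = 1). The coactivator of mitochondrial biogenesis Ppargc1a stood at 5.68, 5.78 and 5.35 FPKM with semaglutide and 4.64, 6.39 and 7.51 FPKM with HIIT (-0.10 ± 0.15, limma adjusted p = 0.714). Of 27 genes of mitochondrial biogenesis and dynamics the transcription factor Nrf1 was the only one called (0.49 ± 0.11, limma adjusted p = 0.0282), and it lost the call without any 1 semaglutide library or HIIT replicate 2 or 3 (limma adjusted p of up to 0.101).

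Genes of the tricarboxylic acid cycle (20 tested), fatty acid oxidation (28), glycolysis and glycogen (30) and branched-chain amino acid breakdown (23) gave 0 calls by limma, with 0, 2, 6 and 3 at an unadjusted p under 0.05. Pdk4, the kinase that shuts pyruvate out of the mitochondria, stood at 786, 477 and 623 FPKM with semaglutide and 420, 62.1 and 500 FPKM with HIIT, where replicate 2 was far below the others (1.38 ± 0.63, limma adjusted p = 0.218). Cpt1b, which admits fatty acids to the mitochondria, was at 0.02 ± 0.17 (limma adjusted p = 0.948). The fatty acid transporter Cd36 (-0.28 ± 0.19, limma adjusted p = 0.406) and the uncoupling protein Ucp3 (0.88 ± 0.48, limma adjusted p = 0.290) were not called. Of the sterol synthesis genes 24 of 26 lay below 0 with a median of -0.31, and 0 were called by limma (1 higher and 11 lower at an unadjusted p under 0.05).

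Fibre type genes gave 2 calls. Of 18 slow fibre genes 0 were called by limma (0 higher and 1 lower at an unadjusted p under 0.05), with a median of -0.03. Of 17 fast fibre genes 1 was called in each direction, where 2.35% of all genes were called higher and 2.24% lower. Mylk2, the kinase of the fast myosin light chain, stood at 348, 289 and 317 FPKM with semaglutide, against 255, 120 and 112 FPKM with HIIT (1.06 ± 0.27, limma adjusted p = 0.0483). The light chain Myl1 stood at 4821, 4147 and 4319 FPKM with semaglutide, against 5725, 7082 and 5652 FPKM with HIIT (-0.47 ± 0.12, limma adjusted p = 0.0479). Both calls ended without any 1 semaglutide library, HIIT replicate 2 or 3 and others (limma adjusted p of up to 0.161).

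Stress genes had calls in both directions, where 2.35% of all genes were called higher and 2.24% lower. Of 23 genes of the ATF4 and unfolded protein response, Ppp1r15a (GADD34, 1.23 ± 0.22, limma adjusted p = 0.0163) and Eif4ebp1 were higher, and the disulfide isomerases Pdia4 (-0.84 ± 0.19, limma adjusted p = 0.0292) and Pdia6 (-0.51 ± 0.10, limma adjusted p = 0.0234) were lower. The calls of Ppp1r15a, Pdia4 and Pdia6 ended without semaglutide replicate 1 or HIIT replicate 3 and, for the isomerases, without others (limma adjusted p of up to 0.113). Of 52 cytosolic ribosomal protein genes 0 were called by limma (0 at an unadjusted p under 0.05), with a median of 0.01, and of 27 heat shock genes 0 (3 at an unadjusted p under 0.05). Vegfa, the main inducer of capillary growth, overlapped, at 54.9, 43.4 and 29.1 FPKM with semaglutide and 54.1, 42.2 and 52.5 FPKM with HIIT. Of 23 angiogenesis genes only Angpt1 was called (-0.87 ± 0.19, limma adjusted p = 0.0298), and not without any 1 semaglutide library or HIIT replicate 1 or 3 (limma adjusted p of up to 0.127).

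**Figure D4:**
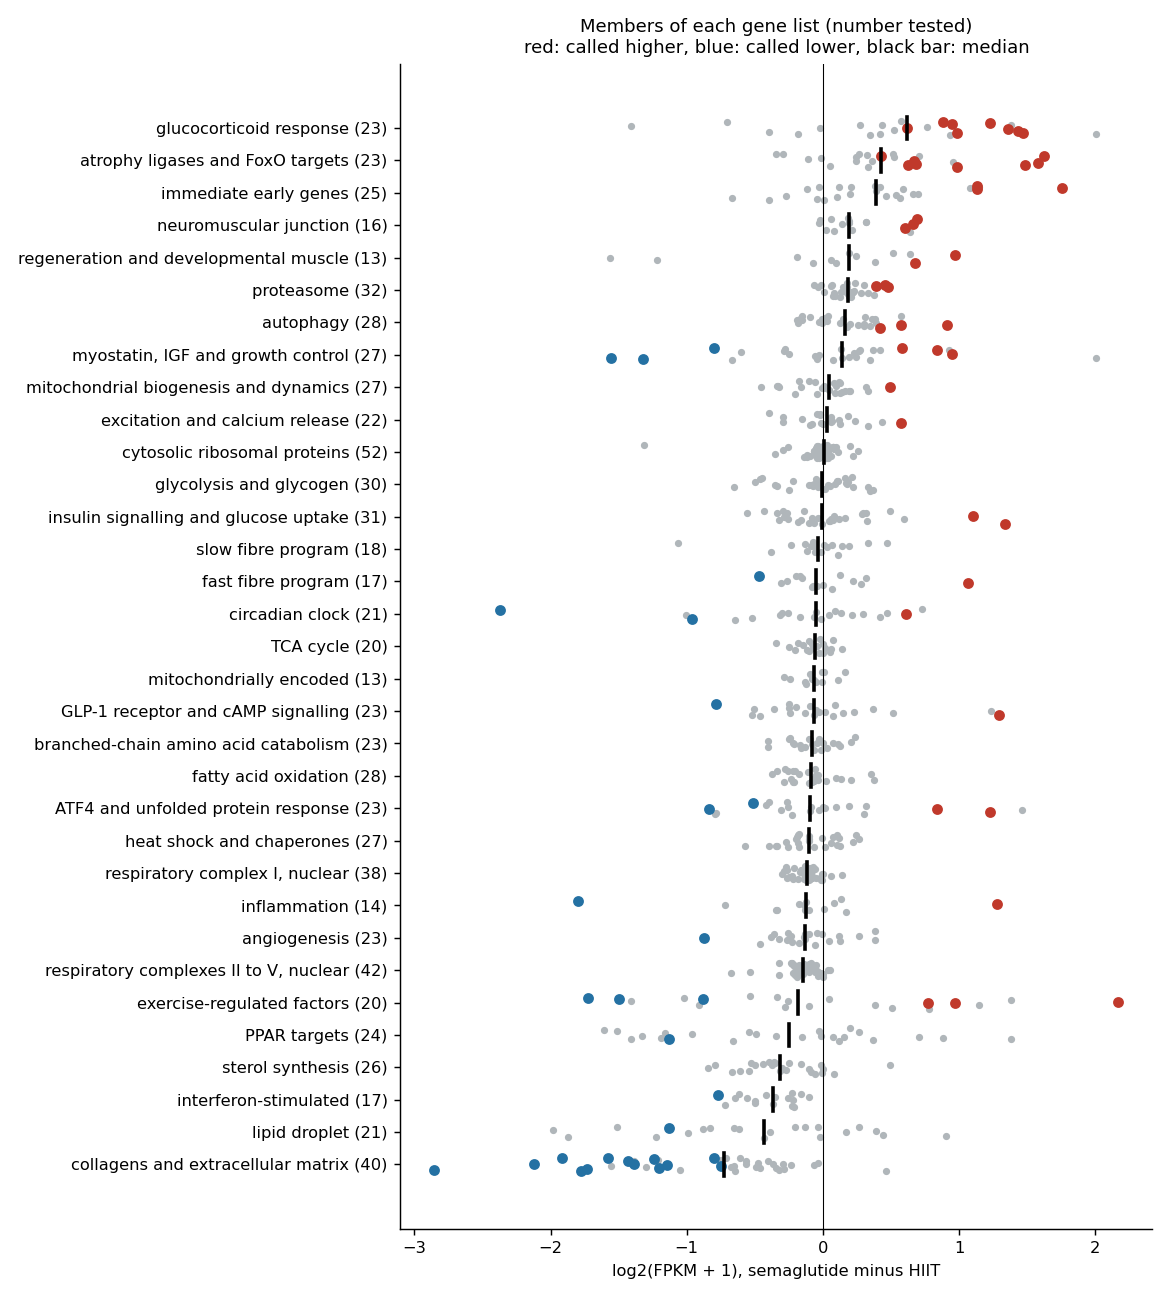
Difference between semaglutide and HIIT muscle (x axis, log2(FPKM + 1), semaglutide minus HIIT) of every tested member of 33 gene lists, ordered by list median (black bars). Red and blue points are members called higher and lower with semaglutide. The glucocorticoid and atrophy lists are at the top with medians of 0.62 and 0.43 and 8 red points each, and the matrix list is at the bottom with a median of -0.73 and 13 blue points.

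The remaining 6 libraries hold a comparison that uses none of the semaglutide or HIIT libraries, the combination against control, though the spread was estimated over all 12. In it 668 genes (6.26%) were called, 116 higher (1.09%) and 552 lower (5.18%), with a median difference of -0.13. Control replicates 1 and 2 are among the 3 libraries richest in liver transcripts, and 14 of 17 hepatocyte markers were called lower here, with a median of -4.34. Of the 251 genes higher with semaglutide than with HIIT, 58 (23.1%) were higher in combination than in control muscle and 1 was lower, and 213 lay above 0 with a median of 0.26. These 58 were 50.0% of the 116. Of the 239 genes lower with semaglutide than with HIIT, 50 (20.9%) were lower in combination than in control muscle and 0 were higher by limma, and 224 lay below 0 with a median of -0.35. These 50 were 9.06% of the 552. Among the 10176 genes not called between semaglutide and HIIT, 0.570% were higher and 4.92% lower in combination muscle, with a median of -0.13.

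The calls of this comparison rested on few libraries. Their number was 30 without control replicate 1, 40 without control replicate 2, 4 without combination replicate 2, 23 without combination replicate 3 and 1643 without combination replicate 1, and without semaglutide replicate 1, 2 or 3, which enter through the spread alone, it was 424, 399 and 398. Without the 3 liver-rich libraries 162 genes were called, with the only remaining control library assumed to vary like the other groups, and 1 with the hepatocyte score as a covariate. Of the 251 genes higher with semaglutide than with HIIT, 210 to 220 lay above 0 in these fits, with medians of 0.22 to 0.36. Of the 239 lower genes 210 to 227 lay below 0 without any 1 control or combination library, against 184 (median -0.24) without the 3 liver-rich libraries and 139 (median -0.09) with the hepatocyte score. That score moved the median of all genes to 0.05, and TMM factors moved it to -0.02.

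By list, 6 of 23 atrophy genes were called higher in combination than in control muscle and 0 lower, and 5 of 23 glucocorticoid genes were higher and 2 lower. Over all genes 1.09% were called higher and 5.18% lower. Of 40 matrix genes 0 were higher and 2 lower, which is near the share over all genes, with a median of -0.37 against -0.13 over all genes. Pde4b was not called there (0.35, limma adjusted p = 0.106), while Ulk1 (0.68, limma adjusted p = 0.0106), Jun (1.19, limma adjusted p = 0.00813), Il6ra (1.29, limma adjusted p = 0.0105) and Fbxo32 (1.03, limma adjusted p = 0.029) were. Nmrk2 was lower, at 6.05, 5.35 and 5.67 FPKM in combination muscle, against 30.1, 14.4 and 30.8 FPKM in control muscle (-1.89, limma adjusted p = 0.0186). The calls of Ulk1, Jun, Il6ra, Fbxo32 and Nmrk2 ended without combination replicate 2, those of Fbxo32 and Nmrk2 also without combination replicate 3 and control replicate 1, and that of Fbxo32 without control replicate 2 (limma adjusted p of up to 0.103). Without the 3 liver-rich libraries Ulk1 was at 0.0804 and Fbxo32 at 0.158 (limma adjusted p), and with the hepatocyte score only Nmrk2 passed (limma adjusted p = 0.00266). Against controls that they share, 397 genes were called for semaglutide and 0 for HIIT by limma (2013 and 952 at an unadjusted p under 0.05). The 397 became 33, 59 and 55 without semaglutide replicate 1, 2 or 3, 33 and 56 without control replicate 1 or 2, 112 and 127 without combination replicate 2 or 3, 145 without the 3 liver-rich libraries and 1 with the hepatocyte score, and the direct difference between the interventions is the comparison above.

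**Figure D5:**
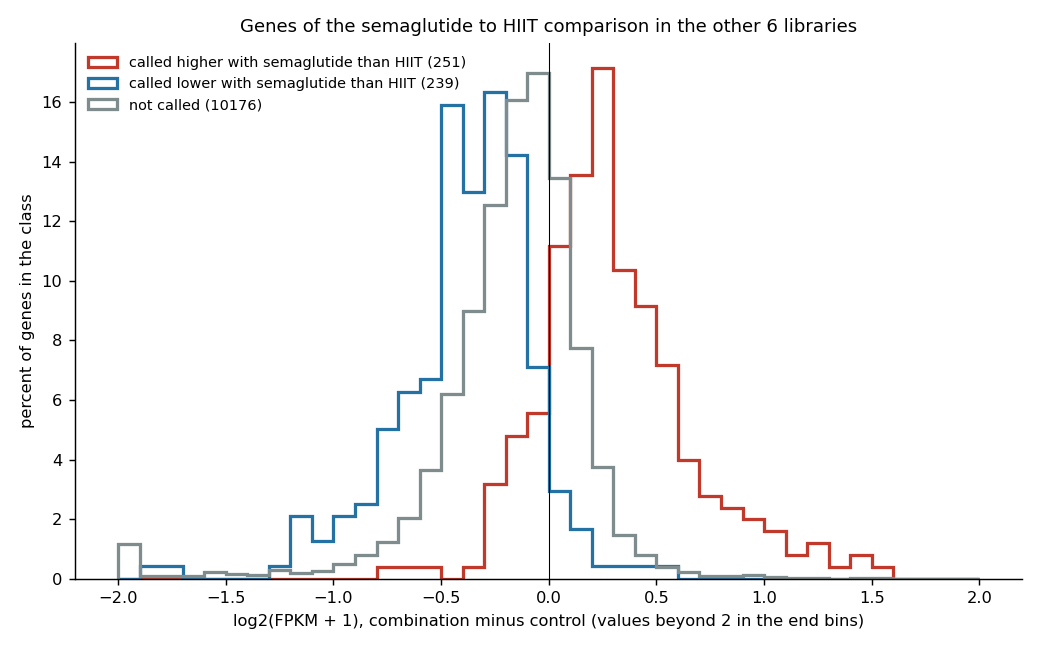
Distribution of the difference between combination and control muscle (x axis, log2(FPKM + 1), combination minus control, in bins whose heights on the y axis are percent of the class) for genes called higher with semaglutide than with HIIT (red, 251), called lower (blue, 239) and not called (grey, 10176). The medians are 0.26, -0.35 and -0.13.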

How the data were processed

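Muscle RNA of db/db mice was measured in 12 libraries, 4 groups of 3, by poly(A)-selected, stranded, paired-end RNA-seq, per the labels' protocols. The authors deposited 1 table of FPKM for 22390 features (4877 at 0 in every library, 274 assembled features without a gene name). The submitters' processing notes list StringTie 2.1.4, featureCounts 2.0.1, STAR 2.7.9a, Trimmomatic 0.36 and GRCm39 as the genome build, without saying what each did, and which tool made the FPKM is not given in the sources used here. FPKM are shares of a library, so a few abundant transcripts shift all others.

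The 10666 genes that reached an FPKM of 1 in 3 or more of the 12 libraries were fitted as log2(FPKM + 1) in R 4.3.3 by limma 3.58.1 with trend and robust estimation and 1 mean per group, with two-sided tests and Benjamini-Hochberg adjustment over all of them. Differences are given in log2(FPKM + 1), a scale that shrinks those of low genes, and ± after one is the limma standard error with 3 libraries a group. Single values were compared with exact permutation tests (scipy 1.17.1). Depth came from the smallest FPKM steps of 4431 genes with 1 annotated transcript (41 to 62 values a library), and counts were not used. The fit was tested on simulated data. Alternatives changed the pseudocount, the filter, the scaling (TMM factors computed from the FPKM among them), the libraries and the covariates.

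Genes were named by rule: the 12 called genes in each direction with the largest difference and groups that did not overlap, up to 3 called members of each list by p, 24 fixed genes and the 3 most abundant markers of each cell type. Col6a2, Col1a2 and Lum among the lower ones are given with the matrix list. Other called list members and Ddit4, Foxo1 and Bmal1 were named after their values were seen. The members compared and the lists were chosen with earlier results of these data known. Some called genes are not reported here. Equal replicate numbers did not pair the semaglutide and HIIT libraries.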

Additional observations from a re-analysis of the deposited data

How the results depend on the processing

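Under 25 alternative settings the count of 490 called genes was within 1.5 times for pseudocounts of 0.1 and 0.5, both other filters, limma without trend and robust estimation and leaving out any control or combination library. It fell to 77 (55 higher and 22 lower in semaglutide muscle) with the hepatocyte score as a covariate, to 206 (167 and 39) with the white adipocyte score and, in settings added after the data were seen, to 156 (107 and 49) with the macrophage score and 88 (43 and 45) without HIIT replicate 1 and control replicates 1 and 2. With only the 6 semaglutide and HIIT libraries 370 were called and the higher ones numbered 167. TMM factors gave 302 higher and 401 lower ones, and rescaling without mitochondrially encoded genes 407 higher ones. Leaving out 1 library gave 66 to 689 calls, 45 to 343 higher and 21 to 346 lower, and fewer samples are part of that. Semaglutide replicate 1 weighed most. A replicate block gave 232 calls (101 higher and 131 lower), but same-numbered semaglutide and HIIT libraries had deviations correlated at only -0.0423, 0.0923 and 0.0073, so the numbers do not pair them. Under the same settings, applied to these comparisons after the data were seen, semaglutide against control (397 calls) had 33 to 552 calls without 1 library, 206 with the filter on the semaglutide and HIIT libraries, 1, 172 and 123 with the hepatocyte, white adipocyte and macrophage scores and 145 without the 3 liver-rich libraries. Combination against control (668 calls) had 4 to 1643 without 1 library, 349 with that filter, 1 with the hepatocyte score and 162 without the liver-rich libraries.

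Of 118 named genes 64 were called. No call reversed in any setting, 20 held without every single library in turn and 15 in all 25 settings, among them Pde4b, H1f2, Ulk1, Sgk1, Col6a3, Dbp, Jun, Eif4ebp1, Il6ra, Serpinh1, Dpt, Tmsb10, Ccn1 and Trim63. At the estimated depth, values under 1 FPKM rest on few fragments.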
